A study of Mus musculus with 17 samples.

Results

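The 17 arrays of the series were compared for 1 question: which genes answered ionizing radiation differently in LGR5hi and in LGR5lo cells. All 17 of 17 arrays entered, and the quantity is the difference of effects, that is the irradiation effect in LGR5hi cells minus the irradiation effect in LGR5lo cells. The cells were labelled intestinal stem cells of LGR5-GFPki mice, a knock-in in which green fluorescent protein reports Lgr5, and every group carried this allele. They were sorted by flow cytometry as LGR5hi or LGR5lo at 3 hours after 12 Gy of gamma-irradiation of the mice, or without irradiation (0 Gy). Without irradiation there were 4 arrays of LGR5hi and 5 of LGR5lo cells, and with it 4 of each sort; every group had 2 female samples and the rest were male. The age and strain of the mice, the number of mice behind an array and the sort gates are not given in the sources used here, so p-values measure the spread between these samples.

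Lgr5 encodes a receptor for R-spondins and marks the cycling crypt base columnar stem cells of the intestine, while cells with less of the reporter include their progeny and secretory precursors. Ionizing radiation breaks DNA, and the kinases that sense the breaks stabilize the transcription factor p53, which switches on cell cycle inhibitors such as Cdkn1a, feedback genes such as Mdm2 and death genes such as Bbc3 and Bax. The same signal stops cells before mitosis and lowers the transcripts of mitotic genes. Immediate early genes, ligands of the EGF, Notch and WNT families and injury genes such as Ly6a are known to rise in damaged crypts.

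The 75th percentile of the signal lay between 286 and 627 intensity units on the 16 arrays with whole files. The share of spots well above background was 58.9% to 73.9% for 15 of these arrays, against 95.6% on non-irradiated LGR5lo replicate 2. On that array the dimmest of 5 equal classes of genes deviated from the rest of its group by a median of 2.43 log2 and the brightest by -0.585, so results are given with and without it. The recorded slope of the spike-in controls was 0.791 on that array and 0 on non-irradiated LGR5lo replicate 4. On the other arrays it was 0.946 to 1.005. Fitted array weights were 0.0861, 0.344 and 0.364 for non-irradiated LGR5lo replicates 2, 4 and 5, against 0.707 to 2.37 for the others. For replicate 1 of non-irradiated LGR5hi cells the array file held here is broken, and its values were rebuilt from the deposited series table. Replicates 1 and 2 of every group shared 1 slide, replicates 3 and 4 another, and non-irradiated LGR5lo replicate 5 lay alone on the third. Values are on a log2 scale on which 0 is the 75th percentile of the array, and errors beside fitted values are standard errors of the fit.

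The labels were first set against Lgr5 and its companions. The mean log2 signal of Lgr5 was 4.23 in non-irradiated LGR5hi and 1.09 in non-irradiated LGR5lo cells, a gap of 3.14 (adjusted p = 2.86e-06 by limma, n = 4 and 5). After irradiation the gap was 2.89, and the difference of effects was -0.25 ± 0.40 with a 95% interval from -1.11 to 0.60 (adjusted p = 0.84). Olfm4 and Ascl2, other genes of these stem cells, likewise had differences of 0.11 ± 0.33 and 0.13 ± 0.32, with intervals from -0.58 to 0.81 and from -0.55 to 0.81. Most enteroendocrine, tuft and goblet markers lay on the LGR5lo side in both arms. The gap of LGR5hi minus LGR5lo was -4.02 and -4.78 log2 for chromogranin A (Chga), -2.31 and -2.35 for the goblet gene Tff3 and -1.89 and -1.94 for the tuft gene Dclk1, without and with irradiation. The goblet gene Clca1 lay on the other side, at 0.17 and 0.18, with neither gap called. For the Paneth markers Lyz1, Defa24, Mmp7, Ang4 and Itln1 no gap was called in either arm. Because the samples are pools of sorted cells, fewer cells of a type and less RNA per cell cannot be told apart.

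Across 27766 genes, limma called the difference of effects for 11 (0.0396% of those tested) at an adjusted p under 0.05, 10 of them higher (0.036%) and 1 lower (0.0036%). Those 10 rose more in LGR5hi cells, and the other, Gper1, fell more there. They were Rai2, Hhex, Wnt10a, Trim47, Gpx3, Arc, Gprc5b, Dapk1, Btbd17 and the clone transcript AK035396. Before irradiation 9 of the 10 lay lower in LGR5hi than in LGR5lo cells, 8 of them with a called gap (over all genes 4.93% were called lower and 4.61% higher). After it 8 lay higher in LGR5hi cells, 5 with a called gap (over all genes 2.21% higher and 4.09% lower). All 10 rose in LGR5hi cells and 5 also rose in LGR5lo cells, against 6.18% and 4.47% of all genes. The 10 were chosen by this difference, which favours such starts, ends and rises, so these counts carry no weight of their own. The split of calls was 10 higher and 3 lower after quantile normalization, 1 and 1 with normexp background correction and 2 and 0 after median centring, which moved the median difference over all genes from 0.06 to -0.24. With normexp, where the median over all genes was 0.18, the difference of effects was 2.12 for Rai2, 1.54 for Hhex, 1.45 for Wnt10a, 2.60 for Trim47, 0.645 for Gpx3 and 2.20 for Arc. It was 1.24 for Gprc5b, 1.57 for Dapk1, 1.23 for Btbd17, -1.02 for Gper1 and 1.03 for AK035396, and of the 11 only Arc was called (adjusted p = 0.0371).

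**Figure D1:**
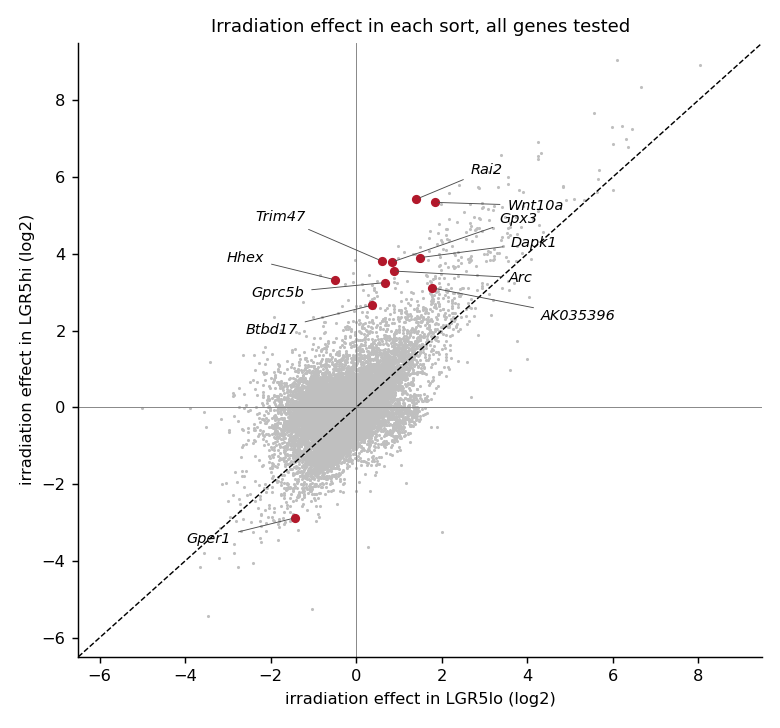
Irradiation effect (log2, irradiated minus non-irradiated) in LGR5hi cells on the vertical axis against that in LGR5lo cells on the horizontal axis, for every gene tested. Red points are the 11 genes with a called difference of effects and the dashed line marks equal effects: 10 of the red points lie above it and Gper1 lies below.

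Same-numbered LGR5hi and LGR5lo arrays of an arm deviated together from their group means, with correlations over genes from 0.12 to 0.46 in the 8 pairs, against -0.30 to 0.14 for other numbers. The arrays of a pair also shared sex and slide, so these and a shared animal cannot be told apart. With these pairs as a fixed block the difference was called for 19 genes (0.0684%), 18 higher (0.0648%) and 1 lower (0.0036%), of which 8 were among the 11. With the pairs as a random block it was called for 55 (0.198%), 48 higher (0.173%) and 7 lower (0.0252%), and these held all 11. Without non-irradiated LGR5lo replicate 2 and with no block, 26 were called (0.0936%), 24 higher (0.0864%) and 2 lower (0.0072%), again with all 11. With the random block and without that replicate, an alternative added after seeing the data, 320 were called (1.15%), 229 higher (0.825%) and 91 lower (0.328%). Leaving out other single arrays gave between 0 and 13 calls. It was 0 without non-irradiated LGR5hi replicate 1 or 2, non-irradiated LGR5lo replicate 1, irradiated LGR5hi replicate 3, or irradiated LGR5lo replicate 1, 3 or 4, and 2 and 4 without irradiated LGR5hi replicate 1 and non-irradiated LGR5hi replicate 4. In these 7 fits with 0 calls limma gave between 1368 and 2918 genes an unadjusted p under 0.05, and the lowest adjusted p among the 11 genes ranged from 0.05 to 0.0818. With slide as a block 2 genes were called, 0 of them among the 11, whose adjusted p then lay between 0.0524 and 0.108, and on slide 1 or slide 2 alone 0 were called, with 724 and 1216 at an unadjusted p under 0.05. The sign of each of the 11 differences was the same on both slides.

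Among signalling genes, Wnt10a encodes a WNT ligand, Gprc5b an orphan G-protein-coupled receptor and Gper1 a membrane estrogen receptor. In LGR5hi cells the 4 values of Wnt10a were -7.33, -7.02, -6.23 and -7.10 without irradiation and -1.61, -0.56, -1.89 and -2.26 after it. In LGR5lo cells they were -6.11, -5.00, -5.86, -6.35 and -5.48 without irradiation and -4.14, -3.13, -4.24 and -4.17 after it. The LGR5hi values after irradiation all lay above those of irradiated LGR5lo cells, and both lay above the non-irradiated groups. Its probe (NM_009518; mm9 chromosome 1, 74850633 to 74850692) was well above background on 0 of 3 and 0 of 5 non-irradiated arrays, so the rise was at least 13.6-fold in LGR5hi and at least 2.46-fold in LGR5lo cells. These bounds set the irradiated mean against the lowest signal well above background on each non-irradiated array, or the probe's own where higher. The fitted difference of effects was 3.50 ± 0.53 (adjusted p = 0.0241), with 4.17 on slide 1 and 2.69 on slide 2.

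Gprc5b read -4.63, -4.70, -4.25 and -4.02 on the non-irradiated and -1.04, -1.34, -1.28 and -0.94 on the irradiated LGR5hi arrays. The LGR5lo arrays read -3.46, -2.75, -3.80, -2.54 and -3.31 without and -2.52, -2.67, -2.62 and -2.16 with irradiation. LGR5hi cells went from the lower to the higher of the sorts, with no overlap between them in either arm. The difference was 2.57 ± 0.34 (adjusted p = 0.0241), with 2.96 on slide 1 and 2.25 on slide 2 (NM_022420; chromosome 7, 126115825 to 126115884). Without irradiation Gper1 was at 1.29, 1.30, 1.04 and 1.10 in LGR5hi and at -0.19, -0.28, -0.13, -0.34 and -0.12 in LGR5lo cells. After 12 Gy it was at -2.03, -1.12, -1.68 and -1.95 and at -1.71, -1.44, -1.73 and -1.67, in the same order of sorts. Here the sorts were apart before irradiation and overlapped after it. The fall was -2.88 ± 0.17 in LGR5hi and -1.43 ± 0.16 in LGR5lo cells, a difference of -1.45 ± 0.24 (adjusted p = 0.0495), and with the pairs as a fixed block its adjusted p was 0.0682 (NM_029771; chromosome 5, 139903348 to 139903407).

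Of the genes for transcription and regulation of proteins, Hhex encodes a homeobox factor known from somatostatin-producing endocrine cells, Trim47 a ubiquitin ligase of the TRIM family and Dapk1 a calmodulin-dependent death-associated kinase. The log2 signal of Hhex in LGR5hi cells was -6.55, -5.28, -4.55 and -6.19 at 0 Gy and -2.75, -1.43, -2.12 and -2.98 at 12 Gy. For LGR5lo cells the signal was -1.11, -0.44, -0.73, -0.65 and -0.77 at 0 Gy and -1.84, -0.20, -1.51 and -1.38 at 12 Gy. All irradiated LGR5hi values lay above the non-irradiated LGR5hi values, and the LGR5lo groups overlapped. LGR5hi cells nonetheless lay below LGR5lo cells in each pair of both arms. The effects were 3.32 ± 0.44 and -0.49 ± 0.42, a difference of 3.81 ± 0.60 (adjusted p = 0.034), with 4.06 and 3.58 on the slides (NM_008245; chromosome 19, 37514969 to 37515028). The probe was well above background on 1 of 3 non-irradiated LGR5hi arrays and on every array of the other groups.

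Among LGR5hi samples Trim47 measured -1.66, -1.76, -2.07 and -1.60 without and 1.99, 2.66, 2.03 and 1.48 with irradiation. Among LGR5lo samples it measured 0.18, -0.59, -0.21, 1.17 and 0.75 without and 0.74, 1.35, 0.97 and 0.38 with it. The order of the sorts turned, from below LGR5lo in all 4 non-irradiated pairs to above it in all 4 irradiated pairs. The difference was 3.21 ± 0.47 (adjusted p = 0.0241), with 2.79 on slide 1 and 3.40 on slide 2 (NM_001205081; chromosome 11, 115967143 to 115967202). In LGR5hi cells the 4 values of Dapk1 were -3.77, -3.65, -3.82 and -3.26 without irradiation and 0.00, 0.96, 0.08 and 0.06 after it. In LGR5lo cells they were -2.32, -2.60, -3.05, -2.38 and -2.74 without irradiation and -1.25, -0.45, -1.36 and -1.44 after it. Both sorts rose, by 3.90 ± 0.26 and 1.49 ± 0.25, and the difference was 2.41 ± 0.36 (adjusted p = 0.0241; NM_029653; chromosome 13, 60864370 to 60864429). Here too the sorts did not overlap in either arm.

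Rai2 is a retinoic-acid-induced gene, Arc an immediate early gene best known from synapses, Gpx3 the secreted glutathione peroxidase, and Btbd17 a gene of the BTB domain family. Rai2 read -5.01, -4.27, -3.36 and -5.48 on the non-irradiated and 0.30, 1.76, 0.88 and 0.61 on the irradiated LGR5hi arrays. The LGR5lo arrays read -1.44, -0.90, -1.56, -1.14 and -1.20 without and -0.49, 0.80, 0.17 and 0.12 with irradiation. Non-irradiated LGR5hi cells lay below all other arrays, and after irradiation the sorts overlapped. The effects were 5.42 ± 0.41 and 1.40 ± 0.39, a difference of 4.02 ± 0.56 (adjusted p = 0.0241; NM_198409; chromosome X, 158217347 to 158217406). Its probe was well above background on 2 of 3 non-irradiated LGR5hi arrays. Without irradiation Arc was at -1.98, -2.68, -2.04 and -1.80 in LGR5hi and at -0.92, -1.22, -1.14, -0.41 and -0.92 in LGR5lo cells. After 12 Gy it was at 1.09, 2.0, 1.19 and 1.43 and at -0.41, 0.54, -0.09 and -0.22, in the same order of sorts. All irradiated LGR5hi arrays exceeded every other array, and the difference was 2.68 ± 0.36 (adjusted p = 0.0241; NM_018790; chromosome 15, 74499592 to 74499651).

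The log2 signal of Gpx3 in LGR5hi cells was -6.24, -5.49, -4.75 and -5.90 at 0 Gy and -2.07, -1.19, -2.06 and -1.97 at 12 Gy. For LGR5lo cells the signal was -1.08, -0.94, -1.39, -1.13 and -1.17 at 0 Gy and -0.56, 0.41, -0.74 and -0.39 at 12 Gy. The gap lay between -5.17 and -3.35 in the non-irradiated pairs and between -1.60 and -1.32 in the irradiated pairs, with LGR5hi cells lower in both. The difference was 2.95 ± 0.43 (adjusted p = 0.0241, but 0.0512 with the fixed pairs; NM_008161; chromosome 11, 54723436 to 54723495), with 3.31 on slide 1 and 2.61 on slide 2. Its probe was well above background on 1 of 3 non-irradiated LGR5hi arrays. Btbd17 rose by 2.66 ± 0.26 in LGR5hi cells and was 0.37 ± 0.24 in LGR5lo cells (adjusted p = 0.34), a difference of 2.29 ± 0.35 (adjusted p = 0.0278; NM_028055; chromosome 11, 114652723 to 114652781). AK035396 (chromosome 7, 18125402 to 18125459) was the only one of the 10 with no lower level in non-irradiated LGR5hi cells. It rose by 3.11 ± 0.14 and 1.78 ± 0.14, a difference of 1.32 ± 0.20 (adjusted p = 0.0241, but 0.0721 with the fixed pairs).

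**Figure D2:**
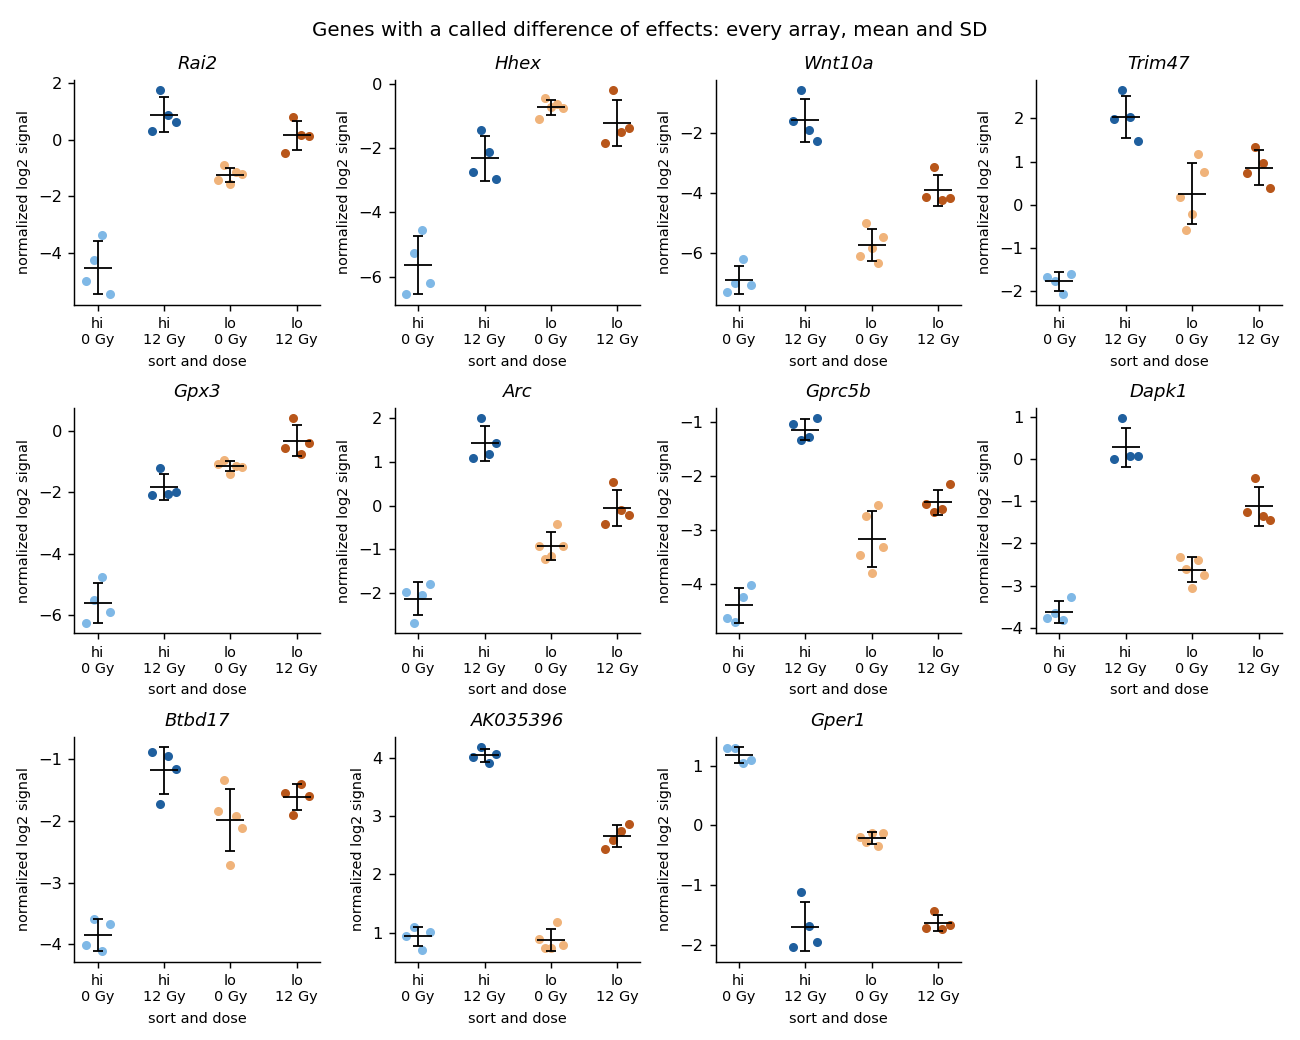
Normalized log2 signal of the 11 called genes on every array (points), with the mean and SD of each group, for LGR5hi and LGR5lo cells at 0 and 12 Gy. In 9 of the 10 panels of rising genes the LGR5hi mean starts below the LGR5lo mean, and in 8 it ends above it.

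A further set was called in the fit without replicate 2 of non-irradiated LGR5lo cells and not over 17 arrays. Abcc8 and Kcnj11, which lie side by side in the genome, encode the subunits of the ATP-sensitive potassium channel. Among LGR5hi samples Abcc8 measured -0.16, 0.17, -0.16 and -0.21 without and 2.20, 1.99, 1.66 and 1.64 with irradiation. Among LGR5lo samples it measured 2.14, 1.60, 1.56, 2.36 and 2.06 without and 2.62, 2.43, 2.08 and 2.15 with it. LGR5hi cells closed most of a gap of -2.04 to -0.45, with a difference of 1.59 ± 0.28 (adjusted p = 0.0827) over 17 arrays and 1.67 ± 0.27 (adjusted p = 0.0324) without that replicate. Its other probe gave 2.75. For Kcnj11 the same values were 2.03 ± 0.68 (adjusted p = 0.57) and 1.46 ± 0.25 (adjusted p = 0.0426), with the other probe at 0.73.

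Lmna, which encodes lamins A and C of the nuclear envelope, rose by 2.43 ± 0.17 in LGR5hi and by 1.18 ± 0.16 in LGR5lo cells. Its difference was 1.25 ± 0.23 (adjusted p = 0.11), and 1.38 ± 0.18 (adjusted p = 0.0193) without the replicate. The Ras inhibitor gene Rasal1 had a difference of 2.63 ± 0.48 (adjusted p = 0.0918) and 2.38 without it (adjusted p = 0.0421), and the cap-binding gene Eif4e3, which has no value on non-irradiated LGR5hi replicate 2, of 2.83 ± 0.49 and 2.60 (adjusted p = 0.0918 and 0.0426). Nexmif, at 3.40 ± 1.02 and 2.56 (adjusted p = 0.51 and 0.0369 by limma), was well above background on 0 of 3 and 1 of 5 non-irradiated arrays. The other genes called so were Gm4588, Wdfy4 and Tmed8 on the higher side and the glycosyltransferase gene B4galnt2 on the lower. Their differences over 17 arrays were 3.58, 2.50, 1.32 and -1.07 ± 0.24 (adjusted p = 0.35, 0.20, 0.0569 and 0.21 by limma). Without the replicate they were 2.81, 2.12, 1.35 and -0.913 (adjusted p = 0.0249, 0.0426, 0.0369 and 0.0498 by limma). Gm4588 was well above background on 0 of 3 non-irradiated LGR5hi and 2 of 5 non-irradiated LGR5lo arrays, so its rise in LGR5hi cells was at least 3.44-fold. Wdfy4 was above it on 5 of 5 non-irradiated LGR5lo arrays but on 1 of 3, 1 of 4 and 1 of 4 of the other groups. Wdfy4 thus passed the filter of 4 arrays well above background only through the group where it was high, so its call carries no weight of its own. Rasal1 and Eif4e3 were above it on 1 of 3 non-irradiated LGR5hi arrays. A further 5 of the 26 carry identifiers alone.

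With same-number pairs as a fixed block, ligands and modulators of cell signalling came in. Jag2 encodes a Notch ligand, Gja1 the gap junction protein connexin 43, and Sfrp5 a secreted WNT inhibitor. In LGR5hi cells the 4 values of Jag2 were -3.75, -3.11, -3.33 and -2.69 without irradiation and 0.50, 1.41, 0.97 and 1.03 after it. In LGR5lo cells they were -2.88, -2.40, -2.56, -1.98 and -2.51 without irradiation and -0.93, 0.34, -0.04 and -0.30 after it. Within pairs LGR5hi minus LGR5lo lay between -0.87 and -0.71 without irradiation and between 1.01 and 1.43 after it. The difference was 1.96 ± 0.40 over 17 arrays (adjusted p = 0.18) and 1.98 ± 0.17 with the pairs (adjusted p = 0.015).

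Sfrp5 read 4.48, 4.44, 4.36 and 3.97 on the non-irradiated and -1.77, -0.14, -1.13 and -1.52 on the irradiated LGR5hi arrays. The LGR5lo arrays read 3.52, 3.15, 3.22, 2.74 and 2.69 without and -1.05, 0.47, -0.40 and -0.57 with irradiation. The gap lay between 0.96 and 1.29 in the non-irradiated pairs and between -0.95 and -0.61 in the irradiated pairs. LGR5hi was thus the higher sort in all 4 of the former and the lower in all 4 of the latter. The difference was -2.0 ± 0.48 (adjusted p = 0.25) and -1.90 ± 0.17 with the pairs (adjusted p = 0.015). Without irradiation Ly6a was at -2.64, -2.69, -2.19 and -1.81 in LGR5hi and at -0.90, -0.79, -1.24, 0.13 and -0.08 in LGR5lo cells. After 12 Gy it was at 4.86, 3.21, 4.50 and 4.57 and at 4.30, 2.72, 4.10 and 3.82, in the same order of sorts. Ly6a, the gene of the Sca-1 antigen of regenerating crypts, thus rose in both sorts, with LGR5hi below LGR5lo in every non-irradiated pair and above it in every irradiated pair. Its difference was 2.31 ± 0.57 (adjusted p = 0.27) and 2.18 ± 0.25 with the pairs (adjusted p = 0.0406).

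Gja1 was well above background on 0 of 3 and 0 of 5 non-irradiated arrays and on 4 and 3 of 4 irradiated ones, which makes its rise at least 5.83-fold in LGR5hi and at least 1.21-fold in LGR5lo cells. Its pair gaps after irradiation ran from 2.09 to 2.33 (adjusted p = 0.0299 with the pairs, 0.21 over 17 arrays). Gja1 passed the filter of 4 arrays well above background only with the irradiated LGR5hi arrays, where it was highest, so its call carries no weight of its own. Other genes called with the pairs on the higher side were the sialyltransferase gene St6gal1 (2.48 ± 0.52 over 17 arrays, with its other probe at 0.75), the sulfotransferase gene Hs3st6 (2.39 ± 0.55), the microtubule gene Map6 (1.64 ± 0.49, with its other probe at 0.19), the phosphatase gene Ptpdc1 (1.5 ± 0.39) and Zcchc24 (3.86 ± 0.79). Zcchc24 was well above background on 0 of 3 non-irradiated LGR5hi arrays, so its rise there was at least 8.44-fold. Gm10287 was called with values between -2.56 and -1.09 on non-irradiated LGR5lo replicates 1 to 4 against -7.22 on replicate 5 and -6.85 or less on all others. It was well above background on 4 of 5 arrays of that group and on 0 of 3, 0 of 4 and 0 of 4 in the other groups. Its mean was thus at least 7.86-fold lower after irradiation in LGR5lo cells. Gm10287 passed the filter of 4 arrays well above background only through the group where it was high, so its call carries no weight of its own. Replicate 5 has no partner and did not count in the pairs, and over 17 arrays the difference was 5.01 ± 1.27 (adjusted p = 0.30 by limma).

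Over the 41 named genes with a value in all 8 pairs, the gaps of the irradiated and non-irradiated pairs did not overlap for 32, against 10% of all genes with such values. These genes were mostly chosen for that difference, so the count and the p-values that follow carry no weight of their own. For each of the 32 the exact two-sided permutation test gave p = 0.0286, the smallest that 4 pairs against 4 can give, and 0.0366 after Benjamini-Hochberg adjustment over the 41.

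**Figure D3:**
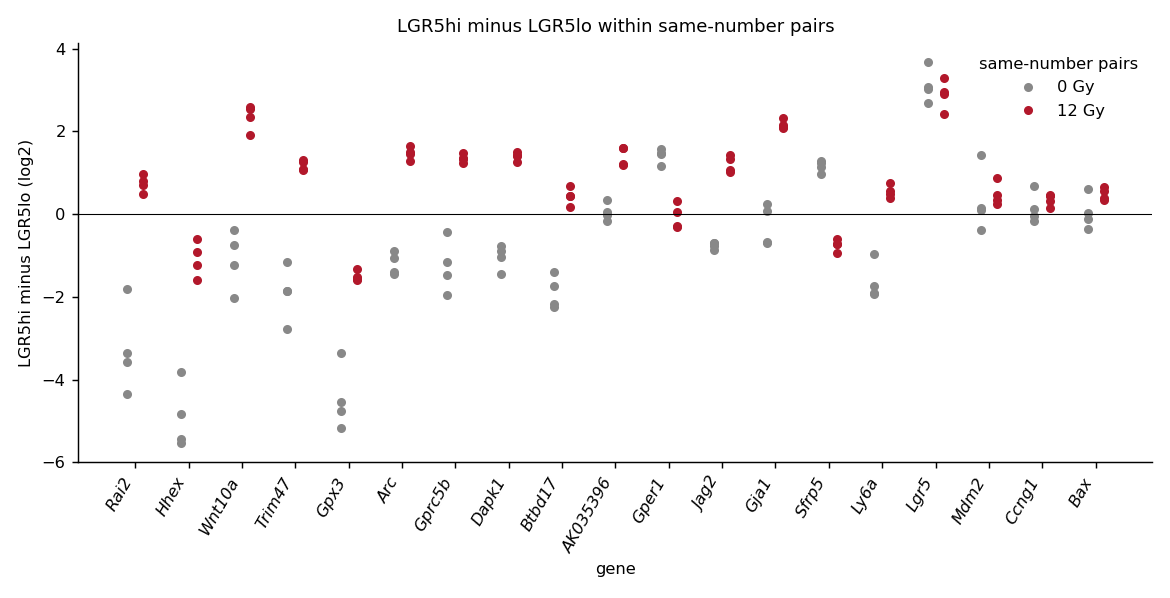
LGR5hi minus LGR5lo (log2) within each same-number pair, for the 11 called genes, 4 genes called with the pairs, Lgr5 and 3 p53 targets; grey points are non-irradiated and red points irradiated pairs. For Jag2 and Ly6a the non-irradiated points lie below 0 and the irradiated points above it, and for Sfrp5 the reverse. For Lgr5, Mdm2, Ccng1 and Bax the points of both arms overlap.

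The p53 programme rose in both sorts. Of 51 targets tested, 39 rose and 1 fell in LGR5hi cells, and 39 rose and 0 fell in LGR5lo cells, where 6.18% and 4.47% of all genes rose. The median difference of effects was 0.17 (0.06 over all genes), and 1 member, Trim47, was called. On the higher side 11 of the 51 had an unadjusted p under 0.05 and on the lower side 0, against 3.88% and 2.92% of all genes. With the random block and without non-irradiated LGR5lo replicate 2, 7 of the 51 were called higher, against 0.825% of all genes. The median was 0.29 without that replicate, 0.28 on slide 2 alone and -0.13 after median centring, where that of all genes was -0.24. The direct targets Mdm2, Ccng1, Bbc3 and Bax had differences of 0.20 ± 0.40, 0.17 ± 0.24, -0.26 ± 0.40 and 0.40 ± 0.25, with 95% intervals from -0.65 to 1.06, -0.35 to 0.68, -1.11 to 0.60 and -0.14 to 0.94. Trp53 itself was at 0.02 ± 0.27 (adjusted p = 0.98).

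Cdkn1a, the gene of the cell cycle inhibitor p21, rose in both sorts from unequal starting levels. The log2 signal of Cdkn1a in LGR5hi cells was -0.82, 0.08, 0.88 and -0.82 at 0 Gy and 4.64, 5.08, 4.50 and 4.75 at 12 Gy. For LGR5lo cells the signal was 2.07, 1.92, 2.10, 2.76 and 2.44 at 0 Gy and 5.13, 5.34, 5.18 and 4.98 at 12 Gy. LGR5hi cells lay below LGR5lo cells by 1.23 to 3.58 in the non-irradiated pairs and by 0.22 to 0.69 in the irradiated ones. The difference was 2.02 ± 0.43 with an interval from 1.10 to 2.93 (adjusted p = 0.19; 0.0158 with the random block and without non-irradiated LGR5lo replicate 2), but its 3 probes ranged from 0.51 to 2.02. Zfp365, known to protect fragile sites, rose by 9.04 ± 0.52 and 6.09 ± 0.50, a difference of 2.95 ± 0.72 (adjusted p = 0.27), with 1 of 3 non-irradiated LGR5hi arrays well above background. The anti-apoptotic gene Bcl2a1d, of the BCL2 family, had a difference of 3.23 ± 0.73 (adjusted p = 0.22) and was well above background on 0 of 3 non-irradiated LGR5hi arrays.

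Genes of G2 and mitosis had the larger median fall in LGR5hi cells. Of 58 tested, 54 fell and 1 rose in LGR5hi cells and 29 fell and 1 rose in LGR5lo cells, where 7.29% and 3.02% of all genes fell. The median effect was -1.69 in LGR5hi and -0.82 in LGR5lo cells, and the median difference of effects -0.825 against 0.06 over all genes. The difference was below 0 for 57 of the 58, the exception being Gtse1 at 0.12. An unadjusted p under 0.05 was reached by 34 on the lower side and 0 on the higher, against 2.92% and 3.88% of all genes, but 0 members were called after adjustment by limma. With the random block and without non-irradiated LGR5lo replicate 2, 7 of the 58 were called lower, against 0.328% of all genes. The median of the list was -0.72 without that replicate, -0.72 with the pairs, -0.77 on slide 1, -0.69 on slide 2 and -1.12 after median centring.

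Within pairs the median LGR5hi minus LGR5lo over these 58 genes was 0.315, 0.688, 0.425 and 0.47 without irradiation, and -0.429, -0.213, -0.275 and -0.185 after it. The same medians over all genes ran from -0.07 to 0.13. The median of the mitotic transcripts thus lay on the LGR5hi side in every non-irradiated pair and on the LGR5lo side in every irradiated pair. The spindle gene Nusap1 was at 2.83, 2.34, 3.21 and 2.53 without and -0.07, -0.27, -0.52 and 0.06 with irradiation in LGR5hi cells, and at 2.35, 1.58, 2.50, 2.21 and 1.73 and 0.90, 0.36, 0.61 and 0.45 in LGR5lo cells. Its difference was -1.44 ± 0.33 (adjusted p = 0.22 over 17 arrays; 0.0135 with the random block and without the replicate). The mitotic kinase gene Aurka was at 3.83, 3.62, 4.31 and 3.6 and 1.75, 1.32, 1.45 and 1.83 in LGR5hi cells and at 3.59, 2.90, 3.70, 3.04 and 2.89 and 2.43, 1.92, 2.44 and 2.31 in LGR5lo cells, a difference of -1.30 ± 0.31 (adjusted p = 0.25). For both genes the irradiated LGR5hi values lay below all irradiated LGR5lo values. Prc1, a gene of the central spindle, had a difference of -1.32 ± 0.34 (adjusted p = 0.35).

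Other lists of dividing cells had medians below 0 that were nearer to it. The median difference was -0.63 for 23 histone genes (17 fell in LGR5hi, 3 in LGR5lo cells), -0.27 for 57 DNA repair genes and -0.24 for 53 genes of G1 to S and replication, with 0 members called in each. Among the unadjusted p under 0.05 these lists had 6, 2 and 5 members on the lower side, against 2.92% of all genes, a share that the repair list was near. Of the repair genes, 14 fell in LGR5hi and 3 in LGR5lo cells, where 7.29% and 3.02% of all genes fell. The histone median was -0.42 on slide 1 and -0.62 on slide 2, and the repair median -0.29 and -0.13. That of G1 to S was -0.09 on slide 1, -0.23 on slide 2, -0.14 with the pairs and -0.12 after quantile normalization. Its median pair gaps overlapped, at 0.225, 0.876, 0.233 and 0.672 without irradiation and 0.315, 0.42, 0.245 and 0.231 after it. The respiratory chain list had 43 of 45 members below 0 with a median of -0.31, but 0 members rose or fell in either sort, and its median was -0.175 without non-irradiated LGR5lo replicate 2 and -0.13 on slide 2.

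**Figure D4:**
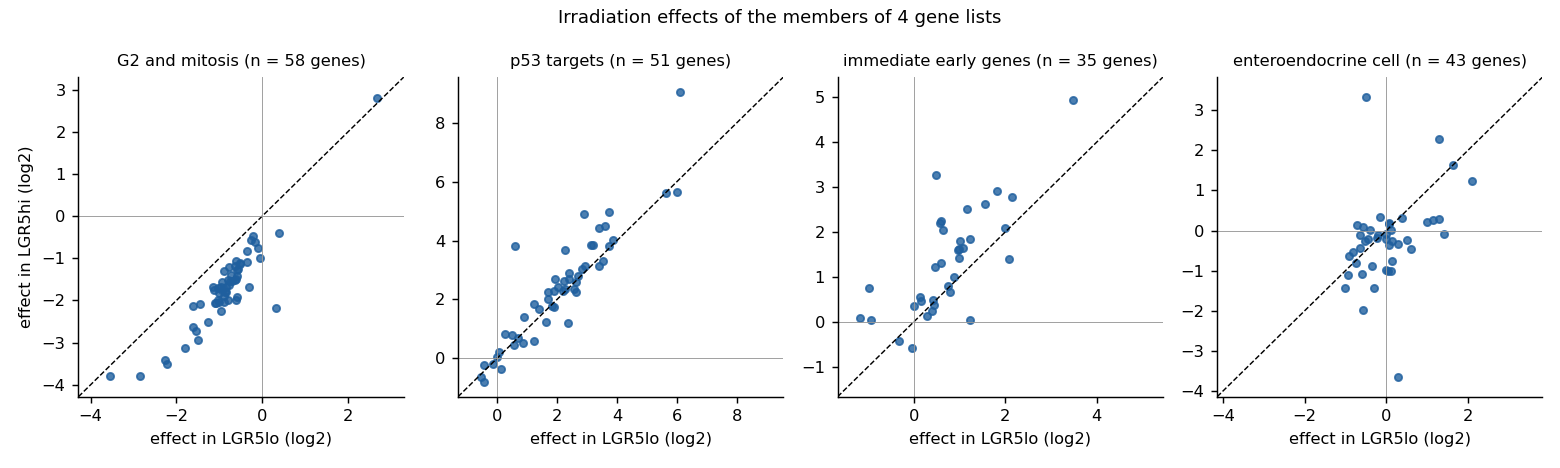
Irradiation effect in LGR5hi cells (vertical, log2) against that in LGR5lo cells (horizontal, log2) for the members of 4 gene lists, with a dashed line of equal effects. All genes of G2 and mitosis but Gtse1 lie below the line, most immediate early genes lie above it, of 51 p53 targets 32 lie above it and 19 below, and of the enteroendocrine genes Hhex stands highest and Nts lowest.

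Some promoters that hold a CCAAT box are shown, of genes that carry these differences. They are Hhex and Gpx3 with the larger rise in LGR5hi cells, and Aurka and Prc1 for the mitotic genes. Each is the 250 bases before the RefSeq start on GRCm38.p6, read along the gene, with capitals for a match on either strand to the CCAAT box (CCAAT), the site of the factor NF-Y, and, in Hhex alone, also to the NF-kB motif.
Hhex, chr19:37434591-37434840, plus strand: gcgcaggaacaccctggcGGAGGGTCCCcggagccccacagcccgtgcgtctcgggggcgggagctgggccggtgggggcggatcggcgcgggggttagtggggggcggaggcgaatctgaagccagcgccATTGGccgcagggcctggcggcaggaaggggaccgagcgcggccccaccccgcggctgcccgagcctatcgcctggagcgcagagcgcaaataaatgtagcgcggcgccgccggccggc
Gpx3, chr11:54902604-54902853, plus strand: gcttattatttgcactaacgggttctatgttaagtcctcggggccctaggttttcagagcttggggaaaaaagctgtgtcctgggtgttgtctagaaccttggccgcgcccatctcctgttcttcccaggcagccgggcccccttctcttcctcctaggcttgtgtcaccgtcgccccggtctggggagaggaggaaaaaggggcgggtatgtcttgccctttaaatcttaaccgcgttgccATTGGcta
Aurka, chr2:172370571-172370820, minus strand: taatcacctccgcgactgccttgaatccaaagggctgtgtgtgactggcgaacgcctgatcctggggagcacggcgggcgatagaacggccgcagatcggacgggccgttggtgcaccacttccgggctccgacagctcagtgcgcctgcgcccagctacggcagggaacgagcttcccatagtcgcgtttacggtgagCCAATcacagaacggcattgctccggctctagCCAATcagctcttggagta
Prc1, chr7:80294201-80294450, plus strand: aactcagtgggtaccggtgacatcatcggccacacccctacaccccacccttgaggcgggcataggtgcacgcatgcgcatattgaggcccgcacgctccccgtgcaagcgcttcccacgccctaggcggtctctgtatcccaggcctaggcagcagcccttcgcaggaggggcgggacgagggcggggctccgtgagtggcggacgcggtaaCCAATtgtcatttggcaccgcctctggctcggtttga
In Aurka 2 matches start 51 and 19 bases before the start, and in Prc1 1 match starts 37 bases before it. Of 58 genes of G2 and mitosis 47 had a promoter in the table, and 36 of them (76.6%) held CCAAT, against 34.5% of 27025 promoters, 1 per gene. It was higher in lists with a median difference near 0, at 87.0% for the unfolded protein response (median 0.00) and 86.7% for cholesterol synthesis (0.03), and was 86.4% for histone genes. The cell cycle homology region, searched as TTTGAA, was in 17 of the 47 (36.2%), against 16.3%. Of the 11 called genes 7 had a promoter there. CCAAT was in 3 of these, the AP-1 motif (TGANTCA) in 0, the TCF/LEF motif (CTTTGNT) in 1, the p53 half-site motif in 0 and the NF-kB motif in 1, against 34.5%, 6.87%, 16.1%, 7.18% and 7.01% of all promoters. A match is a description of these letters and not a bound site, and 250 bases leave out distant elements.

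On the side of larger rises in LGR5hi cells stood immediate early and injury lists. Of 35 immediate early genes, 21 rose in LGR5hi and 12 in LGR5lo cells, against 6.18% and 4.47% of all genes. The median difference was 0.60, with 8 members on the higher side at an unadjusted p under 0.05 (3.88% of all genes) and 0 called. The median was 0.75 without non-irradiated LGR5lo replicate 2 but 0.21 on slide 1, 0.70 on slide 2, 0.37 after quantile normalization and 0.30 after median centring. The list's median pair gaps were 0.318, -0.421, -0.0781 and -0.382 without irradiation and 0.34, 0.338, 0.319 and 0.551 after it. Non-irradiated pair 1 thus lay close to the irradiated pairs. Among LGR5hi samples Egr4 measured -5.19, -6.79, -4.57 and -5.29 without and -2.54, -1.60, -2.33 and -2.25 with irradiation. Among LGR5lo samples it measured -5.14, -4.17, -4.99, -3.71 and -3.84 without and -4.58, -3.65, -3.83 and -3.46 with it. The transcription factor gene Egr4, a member of that list, thus had irradiated LGR5hi values above every other array, and a difference of 2.79 ± 0.60 (adjusted p = 0.20; 0.0307 with the random block and without the replicate). It was well above background on 1 of 3 non-irradiated LGR5hi arrays.

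YAP and TEAD targets, which answer to a growth pathway of regenerating epithelium, had a median of 0.72 over 15 genes and 0 calls, with 0.30 after quantile normalization and 0.42 after median centring. The member with the lowest p, F3, the tissue factor gene, rose by 5.17 ± 0.39 and 3.07 ± 0.37, a difference of 2.10 ± 0.53 (adjusted p = 0.30). For 19 reserve and injury markers the median was 0.50, with Ly6a called under the pairs, and went to 0.99 on slide 1, 0.34 on slide 2, 0.18 after quantile normalization and 0.20 after median centring. For 26 genes of NF-kB and inflammation it was 0.35 with 0 calls, and went to 0.22 without non-irradiated LGR5lo replicate 2, 0.67 on slide 1, 0.20 after quantile normalization and 0.06 after median centring. Areg, an EGF family ligand gene, rose by 7.31 ± 0.45 and 5.97 ± 0.42, a difference of 1.34 ± 0.62 (adjusted p = 0.71). The hedgehog ligand gene Dhh had 2.12 ± 0.64 (adjusted p = 0.51), with 0 of 3 and 1 of 5 non-irradiated arrays well above background. Ribosome biogenesis, interferon response, unfolded protein response, cholesterol synthesis and Hedgehog and BMP lists had medians between -0.04 and 0.03 and 0 calls.

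**Figure D5:**
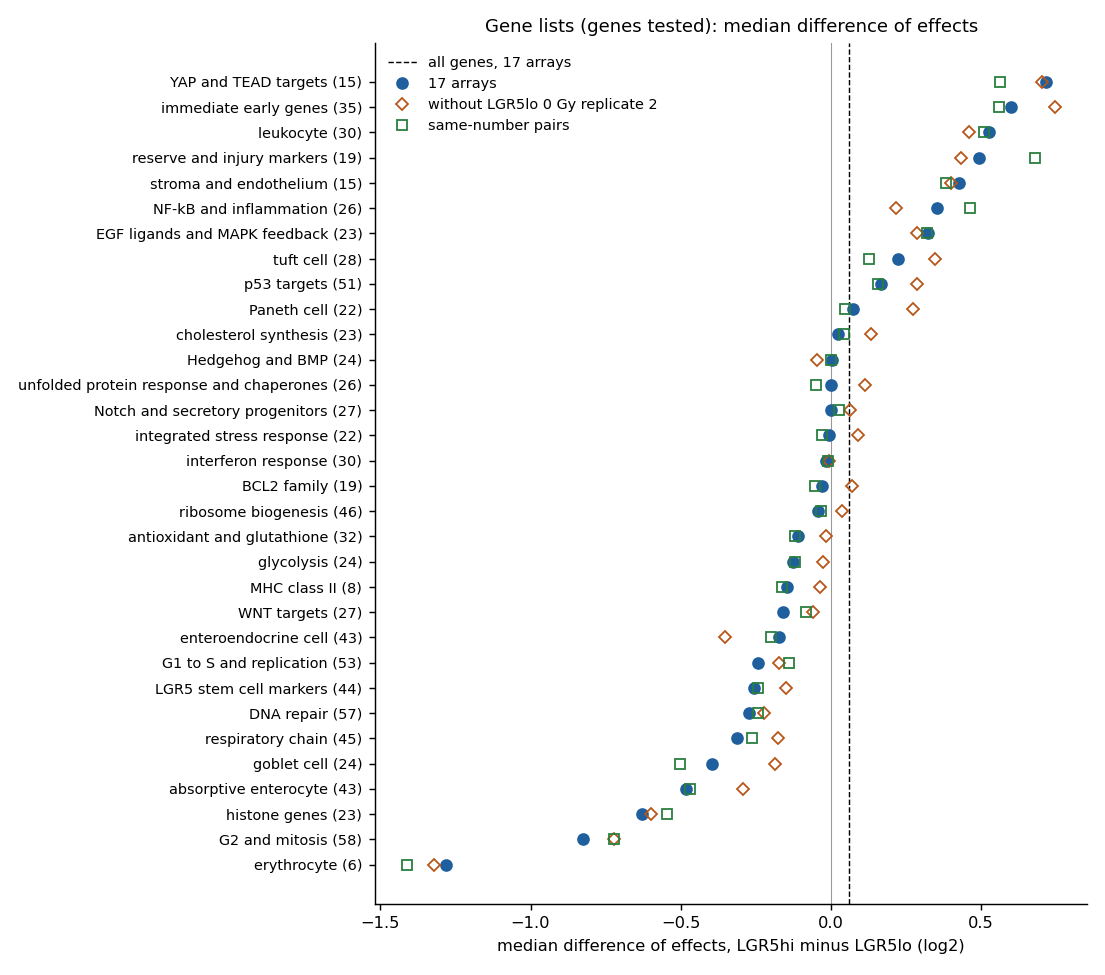
Median difference of effects (log2, horizontal) of each of 32 gene lists, with the number of genes tested in brackets, over 17 arrays (circles), without non-irradiated LGR5lo replicate 2 (diamonds) and with same-number pairs as a fixed block (squares); the dashed line is the median of all genes. Genes of G2 and mitosis lie at -0.825 and YAP and TEAD targets at 0.72 over 17 arrays.

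Markers of other cells were read beside these results. Of 43 enteroendocrine genes 1, Hhex, was called, and the list median was -0.17, with -0.35 without non-irradiated LGR5lo replicate 2 and -0.38 on slide 1. Within pairs the list's median gap lay between -3.44 and -2.75 without irradiation and between -3.61 and -2.90 after it, while that of Hhex went from between -5.54 and -3.82 to between -1.59 and -0.61. Chga was at a mean of 1.82 and 2.03 in LGR5hi and 5.83 and 6.81 in LGR5lo cells, without and with irradiation. In LGR5hi cells the 4 values of Nts were -3.22, -2.60, -0.60 and -0.19 without irradiation and -4.49, -5.57, -5.12 and -5.98 after it. In LGR5lo cells they were 2.80, 2.42, 1.06, 2.54 and 1.66 without irradiation and 3.12, 2.57, 2.02 and 1.77 after it. Neurotensin (Nts) thus changed by -3.64 ± 0.60 in LGR5hi cells (adjusted p = 0.000613), where 2 of 4 irradiated arrays were well above background, and by 0.28 ± 0.57 in LGR5lo cells (adjusted p = 0.77). The difference was -3.92 ± 0.83 (adjusted p = 0.19), with -2.36 on slide 1 and -5.25 on slide 2.

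The 28 tuft genes had a median of 0.22 and 0 calls. The lowest p among them was that of Alox5, a leukotriene synthesis gene, at 1.70 ± 0.40 (adjusted p = 0.25). Paneth, goblet and absorptive enterocyte lists had medians of 0.07, -0.40 and -0.48 and 0 calls, and on slides 1 and 2 they went to -0.79 and 0.81, -1.02 and 0.14, and -1.71 and 0.48. Leukocyte and stromal lists had medians of 0.53 over 30 genes and 0.43 over 15, with 6 and 0 members on the higher side at an unadjusted p under 0.05 (3.88% of all genes) and 0 called. On slide 1 the leukocyte median was 0.12, and after quantile normalization the stromal one was 0.19. In the leukocyte list the lowest p was that of Ly6c1, at 2.22 ± 0.54 (adjusted p = 0.26), and the pan-leukocyte gene Ptprc was at means of -4.11, -3.67, -2.93 and -3.81 in non-irradiated and irradiated LGR5hi and non-irradiated and irradiated LGR5lo cells. Of 6 erythrocyte genes 5 lay below 0, with a median of -1.28. The part of these cells in the other results was not tested.

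The difference also showed as a difference in size over the shared response. Genes whose effect, averaged over the sorts, was at least 1 log2 with an adjusted p under 0.05 numbered 964 that rose and 784 that fell, a choice that did not use the difference itself. Of those that rose, 798 (82.8%) had the larger fitted rise in LGR5hi cells, where the median effect was 1.97 against 1.35 in LGR5lo cells. Of those that fell, 591 (75.4%) had the larger fitted fall in LGR5hi cells, with medians of -1.51 and -1.11. Over all genes 54.9% had a difference above 0 and 45.1% below. Chosen on slide 1 and measured on slide 2, the shares were 83.8% and 80.5%, and the other way about 84.9% and 77.1%. Without non-irradiated LGR5lo replicate 2 they were 82.3% and 85.3%, after quantile normalization 67.7% and 90.6% (40.8% and 59.2% over all genes), and after median centring 63.8% and 82.1% (34% and 66%).

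Within pairs the 964 rising genes had a median LGR5hi minus LGR5lo between -0.20 and -0.02 without irradiation and between 0.40 and 0.52 after it. The 784 falling genes had medians of 0.30, -0.03, 0.23 and 0.31 without irradiation and -0.33, -0.23, -0.05 and -0.28 after it, so that 1 non-irradiated pair, number 2, lay on the same side of 0 as the irradiated ones. That pair holds the array that stood apart.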

How the data were processed

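Cyanine-3-labelled RNA of 17 sorted samples was read on 1-colour Agilent arrays, and the spots were extracted with Agilent Feature Extraction 10.7.3.1, per the submitters' processing notes. The authors deposited linear intensity values per spot for each array, background-subtracted but not normalized between arrays per the file headers, and a series table on a log2 scale. One deposited file (other values: 15329 of 62976 spots readable) is damaged. That array was rebuilt from the deposited log2 table plus an offset per probe, the median over the 16 whole files. For each whole file, values built in this way with offsets from the others lay within 0.02 log2 for 99.63% to 99.85% of probes. The rebuilt array has no background flags, so counts of arrays above background are out of 3 for its group.

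Here log2 of the processed signal minus each array's 75th percentile was used. Of 55681 probes, 41440 well above background on at least 4 arrays were kept, giving 27766 genes, each by its probe with the highest mean signal. Spots with an outlier mark were left out. The 4 groups were fitted together in limma 3.58.1 (R 4.3.3). The standard error of the difference of effects had a median over genes of 0.357. The p-values were adjusted by Benjamini-Hochberg over the 27766 genes and called under 0.05. Tables, tests and plots used Python 3.11.15, numpy 2.4.6, pandas 2.3.3, scipy 1.17.1 and matplotlib 3.10.9. The procedures were tested on simulated data.

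The labels do not say that same numbers mark shared animals, and same-numbered arrays of an arm also shared sex and slide. Within an arm, same-numbered LGR5hi and LGR5lo arrays correlated over genes in their deviations from the group means at 0.121 to 0.456 in all 8 pairs, above the 0.1 required, and other numbers at a median of -0.0812, so the pairs were used as a block. The random block had a correlation of 0.261. The genes, gene lists and rules were chosen with earlier results of these data known. Genes were named if called over 17 arrays, among the further genes called without non-irradiated LGR5lo replicate 2 or with the pairs, among the 3 lowest p of a list, or from a short set of stem cell and p53 genes. Probe positions are on mm9 as the files give them. The 35 planned and 4 added alternatives are reported at the end.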

Additional observations from a re-analysis of the deposited data

Results flagged for a closer look

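The 11 differences of effects named in the report are listed because the test of the difference itself passed: 4.02 for Rai2, 3.81 for Hhex, 3.50 for Wnt10a, 3.21 for Trim47, 2.95 for Gpx3, 2.68 for Arc, 2.57 for Gprc5b, 2.41 for Dapk1, 2.29 for Btbd17, 1.32 for AK035396 and -1.45 for Gper1 (limma, adjusted p from 0.0241 to 0.0495).

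In 14 of 167 groups of 4 or 5 arrays, 1 array lay far from the others, with a gap to its neighbour above 0.829 of the range for 4 arrays or 0.710 for 5. Chance gives this in about 1 of 20 groups. Irradiated LGR5hi replicate 2 was the highest for Gpx3 (0.882), Dapk1 (0.923), Hs3st6 (0.846) and Mdm2 (0.845). Irradiated LGR5lo replicate 2 was the highest for Wnt10a (0.907). Irradiated LGR5lo replicate 1 was the lowest for Gm4588 (0.933) and the highest for Eif4e3 (0.88) and Areg (0.87). Non-irradiated LGR5lo replicate 2, the array that stands apart, was the highest for Nexmif (0.89) and Kcnj11 (0.846) and the lowest for Mdm2 (0.861). Non-irradiated LGR5lo replicate 5 was the lowest for Gm10287 (0.761). In non-irradiated LGR5hi cells, replicate 2 was the highest for Abcc8 (0.847) and replicate 4 the lowest for Mdm2 (0.874).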

How the results depend on the processing

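The count of 11 genes was 2 after median centring, 2 with normexp background correction and 2 with slide as a block, and 0 on slide 1 or slide 2 alone. It was 18 with trended and robust variance and 57 with array weights. With the replicate block of same-number pairs it was 19 (fixed) and 55 (random), 18 with the number as a block across arms, and 94 with the fixed pairs and without non-irradiated LGR5lo replicate 2. Leaving out 1 array gave from 0 to 26. Alternatives added after seeing the data, all without that replicate, gave 320 with the random block, 57 with a common floor, 24 after quantile normalization and 25 from the series table. The other planned settings stayed within 1.5 times the count. None of the 11 differences changed sign in any of the 39 alternatives that tested it, but with normexp that of Gpx3 was 0.645 against 2.95. Values of other named genes did change sign, most of them near 0 with all arrays. Under median centring Olfm4 was -0.185, Ascl2 -0.168, Mdm2 -0.095, Ccng1 -0.131 and Trp53 -0.274. On slide 2 alone Olfm4 was -0.216 and Ascl2 -0.044, and on slide 1 alone Mdm2 was -0.181 and Bbc3 0.062. Leaving out 1 array gave from -0.082 to 0.317 for Olfm4, -0.051 to 0.242 for Ascl2, -0.021 to 0.471 for Mdm2 and -0.108 to 0.142 for Trp53. Without non-irradiated LGR5lo replicate 2 Trp53 was also -0.025 with a common floor, -0.01 after quantile normalization and -0.029 from the series table. Mx1 of the interferon response list and Id4 of the Hedgehog and BMP list were not near 0 with all arrays, at 1.982 and -1.518. Mx1 was -0.005 with normexp. Id4 was 0.286 with normexp, 0.015 with a common floor and 0.072 with the floor and without the replicate. The cause of these changes was not tested. Genes near background limit what these arrays can show, since a level below it gives only a bound.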
